A study of Homo sapiens with 16 samples.

Results

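Heat shock proteins are molecular chaperones, proteins that hold, fold or refold other proteins, and their genes are the classical targets of the transcription factor HSF1. The gene set described here was listed by name, with earlier results of these data known. It holds HSF1 itself, the HSP70 proteins HSPA1A, HSPA1B and HSPA8, and the HSP110 protein HSPH1. It also holds the HSP90 proteins HSP90AA1 and HSP90AB1, the HSP40 protein DNAJB1, and the mitochondrial pair HSPD1 and HSPE1. Of these 10 genes, 9 had a row among the 26830 entries of the expression table, and all 9 were among the 14951 entries that could be tested. HSPA1B is not analysed here.

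RNA came from NOMO-1, an established human line of acute myeloid leukaemia with monocytic features, in 16 libraries. In the compound experiment, cells stood for 72 h in the solvent DMSO (n = 4), in CS1 at 100 nM (n = 3) or in CS2 at 500 nM (n = 3), which the series calls inhibitors of FTO, an enzyme that removes methyl groups from adenosine in RNA. In the hairpin experiment, cells were infected by lentivirus with a hairpin against FTO (shFTO, n = 3) or, per the labels, with shNS (n = 3), read here as the control hairpin, and selection for carriers lasted 1 week at 1 µg/ml puromycin. DMSO is therefore the control of both compounds and shNS the control of shFTO. No further genetic change is labelled in any group, and the labels do not give the hairpin sequences or their number. All groups come from 1 cell line, and replicates are called biological by the submitters without further detail.

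The cytosolic system works as a relay. DNAJB1 brings unfolded clients to HSP70 and starts its ATP cycle, HSPH1 releases ADP so that the cycle can go on, and HSP90 takes over clients such as kinases and steroid receptors that are close to their final fold. HSPA8 and HSP90AB1 are the forms that cells make at all times, whereas HSPA1A and HSP90AA1 are the forms best known for their induction by heat and other protein-damaging stress. HSPD1 and HSPE1 form the barrel and the lid of the chaperonin in the mitochondrial matrix and are transcribed in opposite directions from a shared promoter. HSF1 is held inactive by chaperones in unstressed cells, binds inverted repeats of the unit GAA once released, and is controlled mainly at the protein level.

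Promoter windows of 6 members carry repeats of the kind that HSF1 is known to bind, and these stretches are shown as background to the gene set. Their part in the changes below was not tested. They were read from RefSeq's promoter windows on GRCh38.p14, 250 bases upstream of each listed start, and capitals mark the motif matches. The search covered both strands for the heat shock element of 3 units (GAA and TTC in alternation, starting with either, with NN between neighbours), for TTCNNGAA and GAANNTTC (2 units, both contained in the 3-unit forms), and for the E-box CACGTG.
HSPA1A: accctgGAATATTCccgacc
DNAJB1: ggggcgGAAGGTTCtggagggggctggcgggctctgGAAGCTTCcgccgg
HSP90AA1: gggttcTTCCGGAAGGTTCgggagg
HSP90AB1, distal: agcaggTTCTGGAAGATTCatgggc
HSP90AB1, proximal: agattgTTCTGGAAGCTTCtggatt
HSPA8, distal: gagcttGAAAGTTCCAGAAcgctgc
HSPA8, proximal: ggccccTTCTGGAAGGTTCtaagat
HSPD1, repeat: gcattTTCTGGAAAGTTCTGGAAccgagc
HSPD1 and HSPE1, E-box: tggcgaCACGTGaaaaaa

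The HSPA1A stretch lies at chr6:31815431-31815450 on the plus strand, and the DNAJB1 stretch at chr19:14518431-14518480 on the minus strand. That of HSP90AA1 is at chr14:102087114-102087138 (minus), inside an exon and UTR of a longer HSP90AA1 transcript. The HSP90AB1 stretches are at chr6:44247772-44247796 and chr6:44247825-44247849 (plus). Those of HSPA8 are at chr11:123062348-123062372 and chr11:123062173-123062197 (minus) and overlap annotated HSPA8 UTR. The HSPD1 repeat, at chr2:197500062-197500090 (minus), overlaps UTR annotation of HSPD1 and HSPE1, and the E-box, at chr2:197500351-197500368 (minus), falls in the window of both genes. The 3-unit element occurs in 0.441% of all 35116 promoter windows, TTCNNGAA in 6.62%, GAANNTTC in 5.78% and CACGTG in 6.34%. The 3-unit element stands in a listed window of HSP90AA1, HSP90AB1, HSPA8 and HSPD1. HSPA1A and DNAJB1 have only 2-unit matches, HSPE1 only the E-box, and HSPH1 none of these motifs. HSP90AA1, HSP90AB1, DNAJB1 and HSPD1 have other listed windows, and these hold no GAA repeat of the kinds searched. The shares above are per window, not per gene. No window is shown for HSF1. A match describes the letters in a window, and which start these cells use is not known.

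Expression was deposited as TPM, an abundance per transcript length with a fixed library total, so the depth behind a value is unknown and counting error could not be computed. The number of entries with a value over 0 ranged from 18675 to 19358, and ribosomal RNA entries took 0.828% to 4.58% of TPM. Of 16 marker genes of the monocytic line, 13 or 14 reached a mean of 1 TPM in each group, while lymphocyte, erythroid and megakaryocyte, and epithelial and fibroblast lists summed to at most 19.0, 2.03 and 10.4 TPM, with CD3E at 0 in every library. In bulk RNA, fewer cells of a type and less RNA per cell cannot be told apart. Changes are log2 differences of TPM + 1 from limma, a linear model fitted to all tested genes, and "called" means an adjusted p under 0.05. The median of all tested genes itself shifted by 0.09 after CS1, 0.20 after CS2 and 0.07 with shFTO. Each shift nearly vanished under median-of-ratios scaling (-0.02, 0.01 and 0.02), which is built to remove such a shift. The cause of the shifts was not tested. Calls that differ under that scaling or under quantile normalization, the 2 scalings tried, are named beside the result.

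The members spanned a wide range of abundance in the DMSO libraries. HSP90AB1 was highest at 2129 ± 51.2 TPM (mean ± SD, n = 4), followed by HSPA8 at 1911 ± 95.0, HSPD1 at 1289 ± 5.38, HSP90AA1 at 750 ± 21.5 and HSPE1 at 673 ± 18.0. The remaining 4 were far less abundant: DNAJB1 stood at 98.3 ± 2.78 TPM, HSPH1 at 89.1 ± 2.99, HSPA1A at 74.4 ± 3.78 and HSF1 at 74.1 ± 2.11. Only HSPA1A and HSF1 overlapped as neighbours in this order. Together the 9 genes took 0.697% to 0.728% of all TPM in DMSO, 0.551% to 0.606% after CS1 and 0.445% to 0.465% after CS2. Their share was 0.426% to 0.442% in shNS and 0.241% to 0.311% in shFTO.

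The shNS libraries held less of every member than the DMSO libraries, without overlap. The ratio of mean TPM, DMSO to shNS, was 2.39 for HSPA8 and 2.17 for HSPH1, lay between 1.53 and 1.74 for HSPE1, HSPA1A, HSPD1, HSP90AA1 and DNAJB1, and was 1.26 for HSP90AB1 and 1.14 for HSF1. This is a description of the control groups, in which solvent, virus and puromycin cannot be told apart. Levels are therefore compared within an experiment below, except in the closing ranking of genes by likeness, which spans both.

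**Figure D1:**
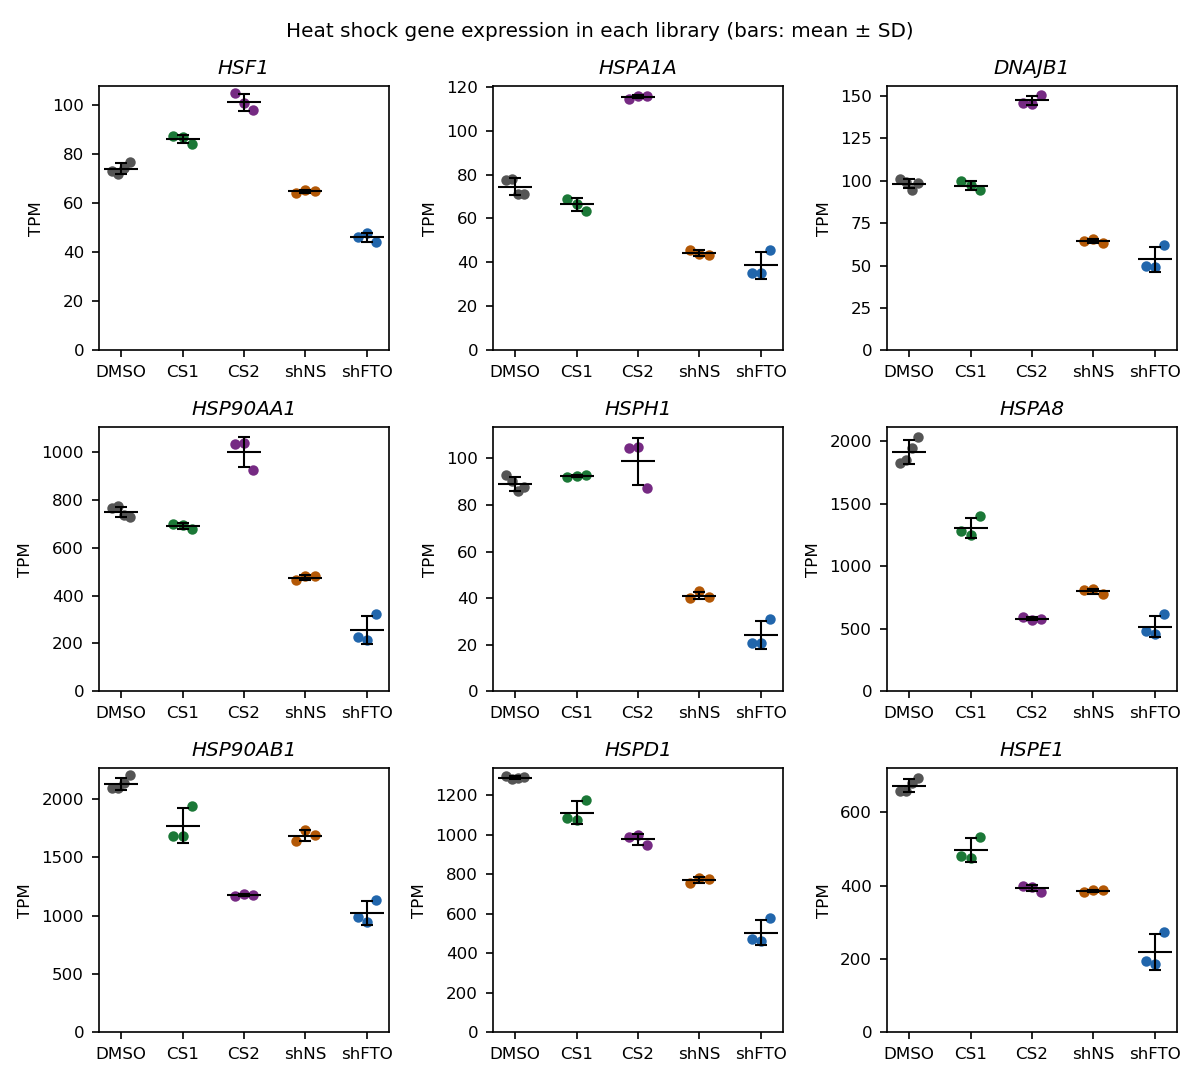
TPM of each heat shock gene (vertical axes, from 0) in the 16 libraries by group; points are libraries, bars the mean ± SD (n = 4 for DMSO, 3 otherwise). HSPA8, HSP90AB1, HSPD1 and HSPE1 step down from DMSO to CS1 to CS2, HSPA1A and DNAJB1 stand highest in CS2, and the shFTO libraries lie at or below the shNS libraries except for 1 library of HSPA1A.

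The hairpin comparison asks what lowering FTO does to these genes. FTO itself stood at 31.27, 30.82 and 32.79 TPM in shNS and at 8.12, 7.49 and 8.35 TPM in shFTO (log2 change -1.86, limma adjusted p = 7.38e-12), so the labels match the target. With FTO lowered, all 9 members fell, where 56.4% of all tested genes were called, 31.9% higher and 24.5% lower. Their median change was -0.64, beside 0.07 for all tested genes. In 8 members the groups did not overlap, as in 64.7% of tested genes. The count stayed at 9 under both scalings and without shFTO replicate 3, described next. It was 8, by the loss of HSPA1A, when any other hairpin library was left out. The same loss occurred with no filter, with a replicate block and with only the compared groups in the fit.

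The shFTO libraries were uneven. Replicate 3 was the highest of the group for 8 members and the farthest from the other replicates for all 9, as it was for 47.4% of tested genes. Coefficients of variation in shFTO were 24.5% for HSPH1, 22.8% for HSP90AA1 and 21.9% for HSPE1, against 3.84%, 1.95% and 0.781% in shNS. Without that replicate the changes of the 8 members other than HSF1 were larger, from -0.32 (HSPA1A) to -1.10 (HSP90AA1), and that of HSF1 was -0.45.

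HSP90AA1, the stress-inducible HSP90, showed the largest change of the set. It stood at 464.23, 479.63 and 480.83 TPM in shNS and at 227.12, 215.34 and 321.30 TPM in shFTO. All shFTO libraries were below all shNS libraries, with replicate 3 the nearest to them. The log2 change was -0.92 (95% interval -1.14 to -0.70, adjusted p = 2.64e-06), a 1.87-fold lower mean. HSP90AB1, its constitutive paralogue, went from 1636.35, 1732.71 and 1685.60 to 989.66, 941.21 and 1133.85 TPM. Again the groups were apart, and the change was -0.73 (adjusted p = 2.02e-07).

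HSPE1, the lid of the mitochondrial chaperonin, stood at 383.25, 388.98 and 387.76 TPM in shNS and at 195.43, 187.99 and 274.69 TPM in shFTO. The fall was 1.76-fold (log2 change -0.84, adjusted p = 4.6e-06). HSPD1, the barrel, went from 755.22, 783.07 and 777.57 to 474.92, 460.66 and 579.91 TPM (-0.62, adjusted p = 1.33e-06). No shFTO library reached a control library for either gene of the pair.

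HSPH1, the exchange factor of HSP70, was at 39.95, 42.87 and 40.37 TPM in shNS and at 20.74, 20.91 and 31.13 TPM in shFTO (-0.76, adjusted p = 4.33e-05). HSPA8, the constitutive HSP70, was at 807.80, 815.21 and 775.94 TPM and then at 481.73, 455.05 and 616.12 TPM (-0.64, adjusted p = 1.27e-05). Both genes were lower in every shFTO library, and in both replicate 3 lost least. HSF1 was the exception to that pattern: from 64.38, 65.47 and 64.84 TPM it went to 46.21, 47.96 and 44.08 TPM, with replicate 3 the lowest (-0.49, adjusted p = 6.91e-08).

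The smallest changes were those of the classical inducible HSP70 and its J-domain partner. DNAJB1 stood at 64.37, 65.72 and 63.20 TPM in shNS and at 49.73, 49.13 and 61.99 TPM in shFTO. The highest shFTO library lay just under the lowest control (-0.27, adjusted p = 0.00257). HSPA1A stood at 45.63, 43.96 and 43.28 TPM and then at 35.06, 35.41 and 45.71 TPM, so replicate 3 lay above all controls. Its change of -0.20 (adjusted p = 0.0385) rests on this spread: it was -0.32 (adjusted p = 4.59e-05) without shFTO replicate 3, and it missed the threshold when any of the other 5 hairpin libraries was left out (-0.13 to -0.22, adjusted p = 0.0575 to 0.175), with no filter (0.0606), with a replicate block (0.0594) or with only the compared groups in the fit (0.141). Beside these results, the summed TPM of the 16 markers of the monocytic line was 2119 to 2221 in shNS and 4270 to 4842 in shFTO. The list also holds genes not particular to monocytes, such as MPO, HOXA9 and PTPRC, and its sum follows its most abundant genes. Whether this shift had a part in the falls of the members was not tested.

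CS2 was compared with DMSO to see what the compound does to the same genes. Here the members went in different directions. HSF1, HSPA1A, DNAJB1 and HSP90AA1 rose, HSPA8, HSP90AB1, HSPD1 and HSPE1 fell, and HSPH1 did not pass the test. Of all tested genes, 74.1% were called, 49.5% higher and 24.6% lower, and in 72.2% the groups did not overlap, as in 8 of the 9 members. The members' median was 0.14, beside 0.20 for all tested genes, and turned to -0.08 and -0.09 under the scalings, beside 0.01 and -0.00052. The calls higher were 66.8% of all calls, 50.4% under median-of-ratios scaling and 50.2% under quantile normalization.

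HSPA8 had the largest change of any member in any comparison with a control. It stood at 1823.60, 1848.01, 1941.21 and 2031.64 TPM in DMSO and at 595.00, 571.09 and 577.53 TPM with CS2. The CS2 libraries were close together and far under the lowest DMSO library. The mean was 3.29-fold lower (log2 change -1.71, 95% interval -1.88 to -1.55, adjusted p = 3.63e-11), and 1.16% of tested genes had a lower value. HSP90AB1, the other constitutive cytosolic chaperone, went from 2088.18, 2093.38, 2136.14 and 2198.77 TPM to 1165.87, 1181.45 and 1172.31 TPM. It was 1.81-fold lower (-0.86, adjusted p = 3.19e-09).

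HSPA1A, DNAJB1 and HSP90AA1 went the other way. HSPA1A stood at 77.61, 77.83, 71.23 and 71.12 TPM in DMSO and at 114.48, 115.79 and 115.74 TPM with CS2. Every CS2 library was above every DMSO library (0.63, adjusted p = 1.24e-06), a 1.55-fold higher mean. DNAJB1, which works with HSP70, went from 100.89, 99.46, 94.41 and 98.48 to 145.96, 145.25 and 150.59 TPM (0.58, adjusted p = 4.66e-07). HSP90AA1 went from 763.88, 771.29, 736.88 and 726.13 to 1031.86, 1034.65 and 924.93 TPM (0.41, adjusted p = 0.00129). For HSP90AA1 too the groups were apart, with CS2 replicate 3 the lowest of its group. These rises were not extreme among all tested genes. A lower change was found in 77.5% of them for HSPA1A, 75.1% for DNAJB1, 65.2% for HSP90AA1 and 67.3% for HSF1, described next.

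HSF1, whose product drives the heat response, was at 73.21, 71.91, 74.56 and 76.84 TPM in DMSO and at 104.80, 100.98 and 97.87 TPM with CS2 (0.44, adjusted p = 1.86e-08). HSPH1 was at 92.75, 90.07, 85.82 and 87.79 TPM and then at 104.35, 104.90 and 87.13 TPM. Here CS2 replicate 3 fell among the DMSO libraries, and the change of 0.14 (95% interval -0.08 to 0.37, adjusted p = 0.236) was not called. It was called without shFTO replicate 3, which enters the shared estimate of spread (adjusted p = 0.0281), and its sign turned under both scalings (-0.08 and -0.09).

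The mitochondrial pair was lower. HSPE1 stood at 659.38, 657.55, 680.50 and 695.10 TPM in DMSO and at 399.11, 396.88 and 383.17 TPM with CS2 (-0.77, adjusted p = 1.91e-06). HSPD1 stood at 1294.45, 1282.39, 1286.72 and 1291.90 TPM and then at 986.36, 995.85 and 945.54 TPM (-0.40, adjusted p = 2.2e-05). Neither gene overlapped between groups. By mean level, HSP90AA1 ranked second of the set with CS2 (997 TPM), within reach of HSPD1 (976 TPM), and HSPA8 came after both (581 TPM).

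The size of these changes, more than their direction, depended on how libraries were scaled. Under median-of-ratios scaling and quantile normalization the rises were 0.22 and 0.20 for HSF1, 0.40 and 0.38 for HSPA1A, 0.35 and 0.35 for DNAJB1, and 0.18 (adjusted p = 0.0893, no longer called) and 0.68 for HSP90AA1, while HSP90AB1 stood at -1.09 and -0.30 and HSPD1 at -0.63 and -0.19. The marker sum of the monocytic line was 1424 to 1524 TPM in DMSO and 1768 to 1818 TPM with CS2, and its part in these changes was not tested.

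**Figure D2:**
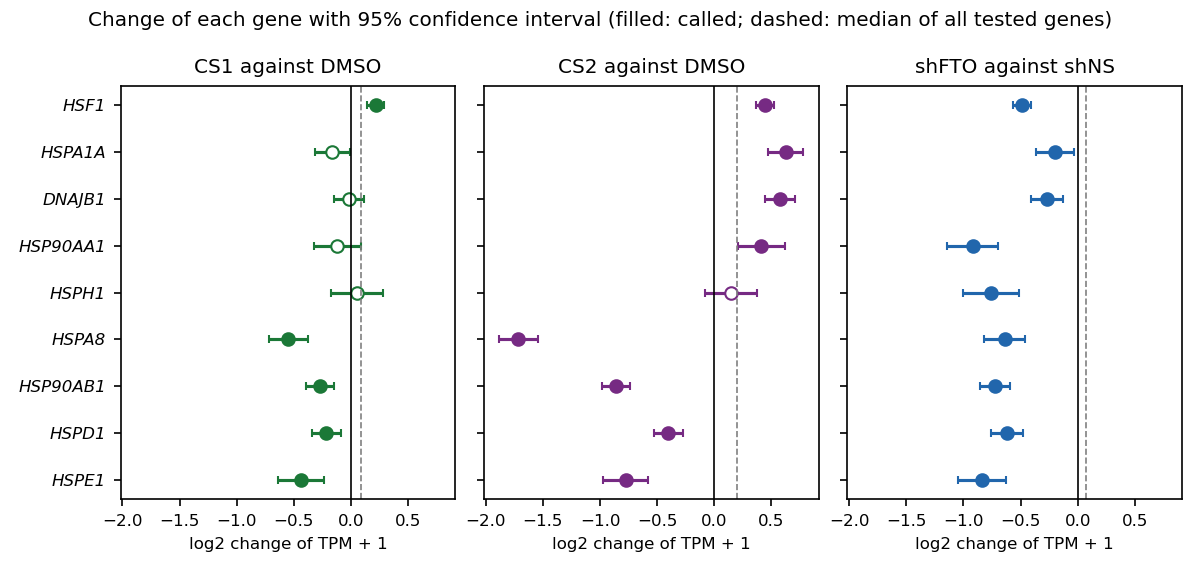
Log2 change of TPM + 1 (horizontal axes) of each gene with its 95% confidence interval in 3 comparisons; filled points were called, open points were not, and the dashed line is the median of all tested genes. All 9 genes lie left of 0 with shFTO, and with CS2 they spread from -1.71 (HSPA8) to 0.63 (HSPA1A).

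CS1 was compared with the same DMSO libraries, at 100 nM, a lower dose than that of CS2. HSPA8, HSPE1, HSP90AB1 and HSPD1 fell, HSF1 rose, and HSPA1A, DNAJB1, HSP90AA1 and HSPH1 did not pass the test. Of all tested genes 51.8% were called, 37.5% higher and 14.3% lower, and the groups did not overlap in 53.9%, nor in 7 of the 9 members. The members' median was -0.16 and that of all tested genes 0.09 (-0.30 and -0.02 under median-of-ratios scaling). Higher calls made up 72.4% of all calls, 48.8% under median-of-ratios scaling and 46.6% under quantile normalization.

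HSPA8 had the largest change of the members except under quantile normalization, where HSPE1 did (-0.45, beside -0.42 for HSPA8). Its CS1 libraries held 1277.84, 1248.28 and 1399.36 TPM, all under the lowest DMSO library of 1823.60 TPM (-0.55, adjusted p = 3.45e-05). HSPE1 held 480.74, 476.99 and 533.94 TPM with CS1, against 657.55 TPM in its lowest DMSO library (-0.44, adjusted p = 0.00105). HSP90AB1 held 1682.81, 1678.58 and 1940.89 TPM (-0.27, adjusted p = 0.00122), and HSPD1 held 1083.44, 1072.64 and 1176.93 TPM (-0.22, adjusted p = 0.00762). In these 4 genes CS1 replicate 3 lay nearest to DMSO, and it was the farthest from its group for all 9 members and for 56.9% of tested genes. Each of the 4 calls held without it.

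HSF1 stood at 87.51, 86.96 and 84.32 TPM with CS1, above all 4 DMSO libraries (0.22, adjusted p = 0.000117). This rise was not called under median-of-ratios scaling (0.08, adjusted p = 0.0862) and was 0.11 under quantile normalization. HSPA1A stood at 68.97, 66.71 and 63.42 TPM, all under the lowest DMSO value of 71.12 TPM, yet its change of -0.16 missed the threshold (adjusted p = 0.0722). It was called lower under median-of-ratios scaling (-0.30, adjusted p = 0.00243), under quantile normalization (-0.28, adjusted p = 0.00429), without ribosomal RNA entries (-0.19, adjusted p = 0.0404), with only the compared groups in the fit (adjusted p = 0.02) and without shFTO replicate 3 (adjusted p = 0.00294).

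HSP90AA1, at 699.56, 692.33 and 676.77 TPM, also lay under all DMSO libraries without passing (-0.12, 95% interval -0.33 to 0.09, adjusted p = 0.319), and it was called lower under median-of-ratios scaling (-0.25, adjusted p = 0.0305), with only the compared groups (adjusted p = 0.00957) and without shFTO replicate 3 (adjusted p = 0.0167). DNAJB1, at 100.01, 97.20 and 94.30 TPM, overlapped DMSO (-0.02, 95% interval -0.15 to 0.11, adjusted p = 0.841). HSPH1, at 92.02, 92.24 and 92.74 TPM, overlapped it too (0.05, 95% interval -0.18 to 0.28, adjusted p = 0.715). Scaling moved 2 of the falls by over 1.5 times: HSP90AB1 was at -0.09 (adjusted p = 0.0492) under quantile normalization and HSPD1 at -0.35 under median-of-ratios scaling. The marker sum of the monocytic line was 1624 to 1651 TPM with CS1, and its part was not tested.

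Set against each other at their own doses, the treated groups differed in 8 members, 4 higher and 4 lower with CS1, where 66.6% of tested genes were called, 26.2% higher and 40.4% lower; groups did not overlap in 67.6% of tested genes. CS1 libraries held more HSPA8 (1.17 on the log2 scale, adjusted p = 1.39e-08), HSP90AB1 (0.59), HSPE1 (0.34) and HSPD1 (0.19) than CS2 libraries. They held less HSPA1A (-0.79), DNAJB1 (-0.60), HSP90AA1 (-0.53) and HSF1 (-0.23). HSPH1 did not differ beyond its spread (-0.09, 95% interval -0.33 to 0.15). The call on HSPD1 was lost without CS1 replicate 3 (0.14, adjusted p = 0.0905) or CS2 replicate 3 (0.16, adjusted p = 0.0641), and its sign turned under quantile normalization (-0.08). That normalization also gave 0.20 for HSP90AB1, -0.86 for HSP90AA1 and -0.10 for HSF1, all still called. Dose and compound cannot be told apart here.

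Whether a compound and the hairpin moved a gene differently was tested as the difference of their changes, each against its own control. For CS2, 6 members were higher than with the hairpin, 1 was lower and 2 did not pass, where 63.4% of tested genes were called, 39.8% higher and 23.7% lower. The differences were 1.33 for HSP90AA1, 0.93 for HSF1, 0.90 for HSPH1, 0.85 for DNAJB1 and 0.83 for HSPA1A, with adjusted p from the limma fit under the threshold in every alternative run. HSPA8 was lower with CS2 than with the hairpin (-1.08). HSP90AB1 (-0.13, 95% interval -0.32 to 0.05) did not pass, but was called lower under median-of-ratios scaling (-0.29, adjusted p = 0.0269) and higher under quantile normalization (0.24, adjusted p = 0.00126). HSPE1 (0.06, 95% interval -0.23 to 0.35) did not pass either, except without shFTO replicate 3 (0.23, adjusted p = 0.00239). HSPD1 passed narrowly (0.22, adjusted p = 0.0435). It lost the call under median-of-ratios scaling (0.06) and when any of 11 of the 13 libraries was left out.

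For CS1, 7 members were higher than with the hairpin and none lower, against 31.0% and 18.3% of tested genes (49.4% in either direction). The largest differences were 0.81 for HSPH1, 0.80 for HSP90AA1 and 0.70 for HSF1. HSP90AB1 (0.45) and HSPD1 (0.40) also passed. HSPE1 (0.40, adjusted p = 0.0242) and DNAJB1 (0.25, adjusted p = 0.0293) did so less firmly, losing the call under median-of-ratios scaling (adjusted p = 0.0665 and 0.109) and without 3 and 6 of 13 libraries. DNAJB1 also lost it under quantile normalization (0.12, adjusted p = 0.283), without ribosomal RNA entries (adjusted p = 0.0594) and with a replicate block (adjusted p = 0.0536). HSPA8 (0.09, 95% interval -0.15 to 0.34) and HSPA1A (0.04, 95% interval -0.19 to 0.26) did not pass, except without shFTO replicate 3 (0.22, adjusted p = 0.0143, and 0.16, adjusted p = 0.0437).

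Ratios of paralogues or partners within a library are not changed by multiplying the library by a factor, as median-of-ratios scaling does; quantile normalization does change them. The 3 ratios described here were chosen after their values were seen. HSPA1A to HSPA8, inducible to constitutive HSP70, was between 0.0350 and 0.0426 in the DMSO libraries, 0.0453 and 0.0540 with CS1, and 0.192 and 0.203 with CS2. It was 0.0539 to 0.0565 in shNS and 0.0728 to 0.0778 in shFTO. In each comparison the treated libraries all lay above their controls.

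HSP90AA1 to HSP90AB1, inducible to constitutive HSP90, was 0.352 ± 0.0181 in DMSO and 0.850 ± 0.0530 with CS2, without overlap. It overlapped its control with CS1 (0.392 ± 0.0378) and with the hairpin (0.282 ± 0.00450 in shNS, 0.247 ± 0.0313 in shFTO). HSPD1 to HSPE1, the barrel to the lid, was 1.92 ± 0.0494 in DMSO, 2.24 ± 0.0272 with CS1 and 2.48 ± 0.0230 with CS2. It was 1.996 ± 0.0227 in shNS and 2.33 ± 0.190 in shFTO, so the lid lost more than the barrel in each comparison. An exact two-sided permutation test cannot go below p = 0.0571 for 4 libraries against 3 or p = 0.1 for 3 against 3, and every ratio without overlap gave that smallest value (0.103 and 0.129 after adjustment over the 9 comparisons). The overlapping ones gave exact p = 0.171 for CS1 and p = 0.2 for shFTO.

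**Figure D3:**
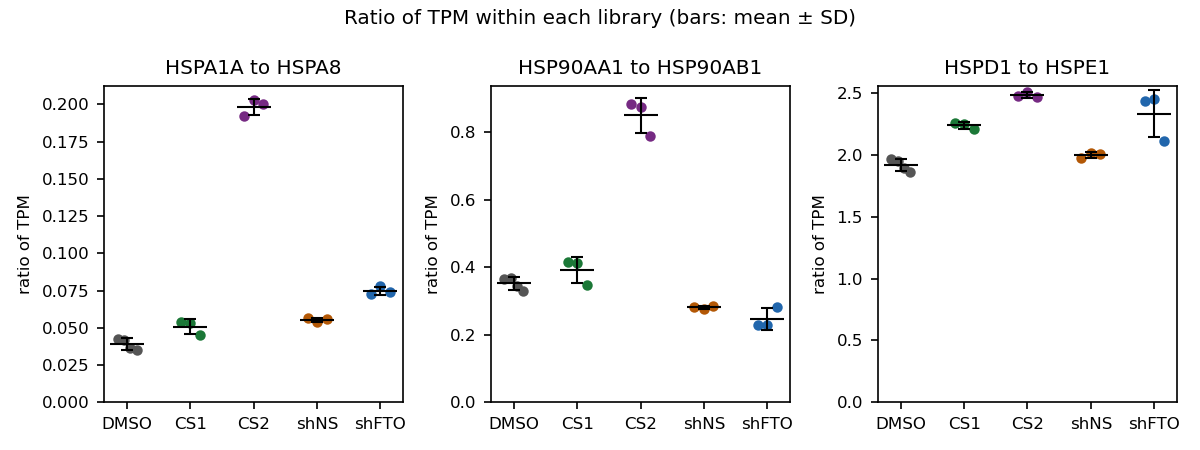
Ratio of TPM of the named genes within each library (vertical axes, from 0) by group; points are libraries, bars the mean ± SD. The CS2 libraries stand at 0.850 for HSP90AA1 to HSP90AB1 and at 0.199 for HSPA1A to HSPA8, above all other groups.

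Reads of some members are hard to assign. Of the 50-base windows in annotated HSPA1A transcripts, 71.3% also occur in HSPA1B, so the HSPA1A values may hold reads of both genes or miss some. Shared windows were 16.6% for HSP90AB1, 13.2% for HSPD1, 11.7% for HSPE1, 11.3% for HSP90AA1, 8.23% for HSPA8 and 2.02% for DNAJB1. The single gene sharing most windows was a pseudogene for each of these, except HSPE1, for which it was the read-through HSPE1-MOB4. HSF1 and HSPH1 shared none.

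The partners of the members were counted in 9 lists of related genes and 1 list of genes known for heat-inducible transcripts. Every count below is of calls from the fit to all tested genes. It is to be read against the share of all tested genes called, with the hairpin 31.9% higher and 24.5% lower. Such shares are not given for the counts under the scalings. With the hairpin, all 8 subunits of TRiC, the cytosolic chaperonin that folds actin and tubulin, fell (median -0.65), CCT7 from 288 ± 4.17 to 163 ± 18.3 TPM (-0.82, adjusted p = 1.86e-08). Of 19 HSP90 cochaperones 16 fell and 1 rose (median -0.41). STIP1, which links HSP70 to HSP90, went from 120 ± 2.59 to 66.0 ± 10.5 TPM (-0.87), and FKBP4, an immunophilin partner of HSP90, from 106 ± 1.76 to 67.0 ± 5.17 TPM (-0.66). Of 15 mitochondrial chaperones and proteases 11 fell and none rose (median -0.27), among them TRAP1, the mitochondrial HSP90, from 164 ± 3.13 to 100.4 ± 6.90 TPM (-0.71).

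The HSP70 side was more mixed with the hairpin, where 31.9% of all tested genes were called higher and 24.5% lower. Of 15 cytosolic J-domain proteins 7 fell and 5 rose. Of 7 other HSP70 and HSP110 proteins 3 fell and 1 rose, of 6 exchange factors 3 fell and none rose, and of 6 prefoldin subunits 4 fell and 1 rose. Of 3 small heat shock proteins 2 fell, and of 6 heat shock factors and regulators other than HSF1, 2 fell and 1 rose. DNAJA1, a J-domain partner of HSPA8, went from 77.1 ± 1.305 to 46.4 ± 10.1 TPM (-0.74), and HSPBP1, an exchange factor, from 39.2 ± 1.93 to 21.1 ± 3.79 TPM (-0.87). HSPA13, an HSP70 of the secretory pathway, rose from 29.7 ± 0.450 to 41.8 ± 2.54 TPM (0.48). These counts changed by at most 2 genes in either direction under both scalings and without shFTO replicate 3.

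With CS2 the lists divided, where 49.5% of all tested genes were called higher and 24.6% lower. Of 15 J-domain proteins 11 rose and 3 fell (median 0.24), yet 7 rose and 4 or 5 fell under the scalings (median 0.02 or 0.06). DNAJA4, an inducible J-domain protein, went from 25.2 ± 0.660 to 66.4 ± 1.06 TPM (1.36, adjusted p = 2.25e-13), while DNAJB6, a suppressor of aggregation, went from 95.2 ± 0.948 to 46.2 ± 4.57 TPM (-1.03). All 3 measured small heat shock proteins rose, 2 of them under either scaling. HSPB1, known as HSP27, went from 554 ± 7.23 to 950 ± 41.5 TPM (0.78) and HSPB11, also known as a subunit of ciliary transport, from 137 ± 4.20 to 325 ± 4.04 TPM (1.24). BAG3, an HSP70 exchange factor induced with HSPA1A by stress, went from 10.4 ± 0.631 to 17.6 ± 0.837 TPM (0.71), and HSPBP1 fell from 52.5 ± 2.07 to 25.4 ± 1.13 TPM (-1.02).

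The chaperonins went down with CS2, where 24.6% of all tested genes were called lower and 49.5% higher. TRiC had 6 of 8 subunits lower and none higher (median -0.40; all 8 lower under both scalings, median -0.63 or -0.53), CCT4 falling from 464 ± 8.97 to 283 ± 9.61 TPM (-0.71). The mitochondrial list had 7 lower and 3 higher of 15 (12 lower and none higher under both scalings), with TRAP1 at 165 ± 6.20 and then 92.0 ± 1.33 TPM (-0.84). HSP90 cochaperones had 7 higher and 6 lower of 19 (4 and 12 under both scalings), and prefoldin 5 higher and 1 lower of 6 (1 and 2, or 2 and 2, under the scalings). The balance of these last lists changed with the scaling. Other HSP70 and HSP110 proteins had 1 higher and 3 lower of 7 (0 and 5 under both scalings), and exchange factors 3 higher and 2 lower of 6 (2 and 3). Of the heat shock factors and regulators 4 rose and 1 fell (2 and 1 under both scalings). HSF2, a relative of HSF1, went from 12.0 ± 0.482 to 15.3 ± 0.959 TPM (0.33), a rise not called under either scaling (0.12 and 0.09).

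After CS1, 37.5% of all tested genes were called higher and 14.3% lower. TRiC had 5 of 8 lower and 1 higher (median -0.17, and -0.30 with none higher under median-of-ratios scaling). The cochaperones had 5 lower and 4 higher (11 lower under both scalings). The J-domain proteins had 7 higher and 2 lower (4 and 4, or 5 and 4), with a median of 0.10 beside 0.09 for all tested genes. The mitochondrial list had 4 higher and 3 lower (0 and 6, or 1 and 8). Other HSP70 and HSP110 proteins had 2 higher and 3 lower (0 and 3), exchange factors 1 and 3 (0 and 4), prefoldin 3 and 2 (1 and 2), small heat shock proteins 2 and 0 (1 or 2 and 0), and heat shock factors and regulators 2 and 0 (2 and 2, or 0 and 2). HSPA9, the mitochondrial HSP70, was called in opposite directions by the compounds: it rose with CS1, from 423 ± 5.77 to 481 ± 1.89 TPM (0.18, not called under median-of-ratios scaling, 0.05), and fell with CS2, to 354 ± 3.61 TPM (-0.26). It fell with the hairpin as well, from 322 ± 7.79 to 263 ± 11.3 TPM (-0.29).

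Of all tested genes, 37.5% were called higher and 14.3% lower after CS1, 49.5% and 24.6% after CS2, and 31.9% and 24.5% with the hairpin. Of 20 tested genes with heat-inducible transcripts that are not members, 9 rose and 6 fell after CS1 (median 0.14), 14 rose and 4 fell after CS2 (median 0.42), and 4 rose and 10 fell with the hairpin (median -0.14). Under the scalings the CS2 count was 10 or 11 higher and 6 lower (median 0.21 or 0.27), and the CS1 count 6 or 8 higher and 8 lower (median 0.02 or 0.07). The CS1 median was 0.07 without CS1 replicate 3, and the hairpin median -0.24 without shFTO replicate 3. ATF3, a stress-induced transcription factor, went from 2.55 ± 0.405 TPM in DMSO to 12.2 ± 1.40 with CS1 (1.89) and 26.3 ± 4.72 with CS2 (2.93). IER5, an immediate early gene whose product acts on HSF1, went from 32.9 ± 0.657 to 47.9 ± 0.713 with CS1 (0.53) and 83.7 ± 2.09 TPM with CS2 (1.32). Among the genes that fell, HSPA4L went from 16.9 ± 1.99 to 13.5 ± 1.03 with CS1 (-0.30) and 13.5 ± 0.875 TPM with CS2 (-0.29). Both compounds share the DMSO libraries, so these pairs of values are not independent.

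**Figure D4:**
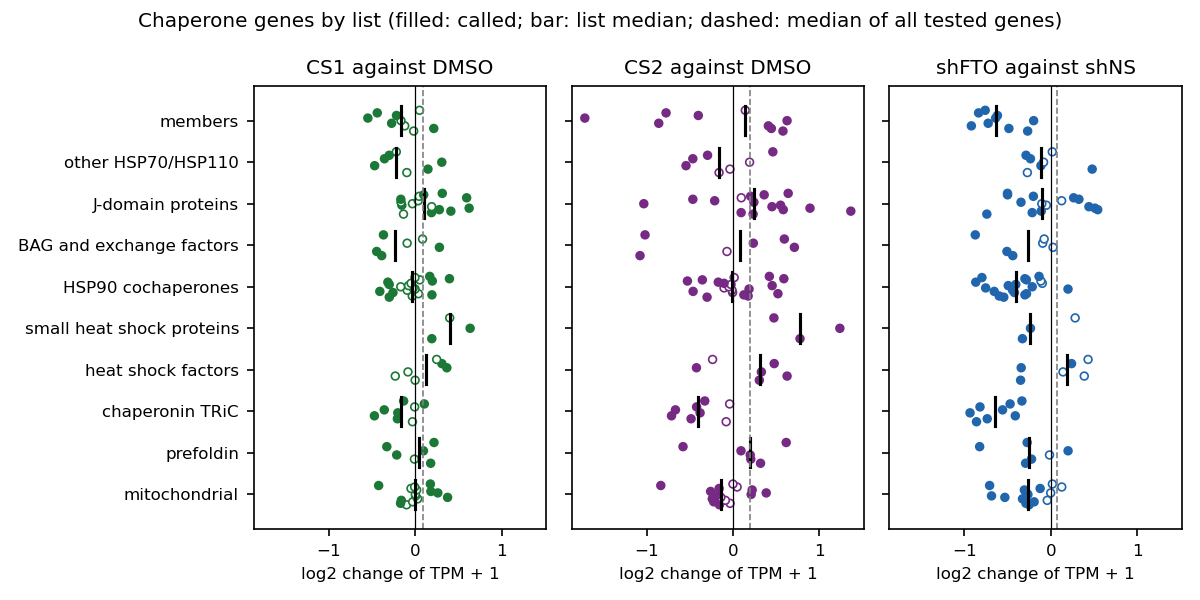
Log2 change of TPM + 1 (horizontal axes) of single genes in each chaperone list, for the members and 9 related lists; filled points were called, vertical bars are list medians and the dashed line is the median of all tested genes. With shFTO the bars of the members and of TRiC lie at -0.64 and -0.65, and with CS2 the members run from -1.71 to 0.63.

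The genes whose profile over the 16 libraries was most like that of a member were ranked by the root mean square difference of centred log2(TPM + 1) among 10716 genes. Values were centred over both experiments, so this measure also takes in the gap between DMSO and shNS. For HSPA1A the nearest genes were NETO2 (0.0754), the member DNAJB1 (0.0799) and TFDP3 (0.0978), where the median gene differed by 0.519. For HSPA8 they included EBNA1BP2 (0.174) and FERMT1 (0.195; median gene 0.812), neither as near as those named for the other members. For HSP90AB1 they were PDCD11 (0.0549), DDX10 (0.0702) and PWP2 (0.0709; median gene 0.524). HSPD1 had TRA2B (0.0629), HNRNPU (0.0721) and SERBP1 (0.0785; median gene 0.524), and HSPE1 had MRTO4 (0.101), NOC2L (0.105) and SRSF2 (0.105; median gene 0.618). HSPD1 and HSPE1, which share a promoter region, differed from each other by 0.149, and HSPE1 was the gene ranked 89 for HSPD1.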

How the data were processed

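Poly(A)-enriched RNA of 16 NOMO-1 libraries was measured. The authors deposited TPM, 1 column per library; the unit was inferred from the values, which sum to 1000000 per column within rounding. RSEM 1.2.31 and GRCh38 were used per the submitters' processing notes. Which aligner and annotation were used is not given in the sources used here. A gene was tested if 3 or more libraries reached 1 TPM, which held for 14951 entries. Limma 3.58.1 in R 4.3.3 (lmFit, eBayes with trend) fitted 1 mean per group to log2(TPM + 1) of all libraries, with a pseudocount of 1, two-sided tests, Benjamini-Hochberg adjustment over all tested genes and a threshold of 0.05. Intervals are 95%. A log2 change on this scale understates that of genes with low TPM. P-values measure the spread between libraries of a group, as 1 estimate per gene shared by all groups. The members varied more in shFTO than in shNS, so their hairpin p-values draw partly on groups with less spread.

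Members and lists were chosen with earlier results of these data known. The rule for named genes took all members, up to 3 genes per list and comparison with the smallest adjusted p among those that passed, list genes called in opposite directions by CS1 and CS2, FTO, and the 3 genes most like each of 5 members, among genes with a mean of at least 5 TPM; not all are printed. Alternatives were 2 pseudocounts, 2 filters, 2 scalings, leaving out ribosomal RNA entries, a replicate block, only the compared groups and leaving out each library. In simulated data with 200 of 14951 genes changed, 34% (CS1 against DMSO) and 28.5% (shFTO against shNS) of those changed by 1.2-fold were recovered. At 1.5-fold 89% and 77.5% were recovered. Far more genes were called in the real data, where the adjustment is therefore less strict. Promoter windows came from RefSeq (GRCh38.p14), transcripts and gene annotation from GENCODE 29, which may differ from the authors' annotation. Sequence searches, permutation tests and plots used Python 3.11.15 (scipy 1.17.1, matplotlib 3.10.9, pandas 2.3.3, numpy 2.4.6).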

Additional observations from a re-analysis of the deposited data

How the results depend on the processing

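The number of members called and of all tested genes called stayed within 1.5 times in all alternatives of all 6 comparisons. Of 954 values of single members under alternatives, 886 kept direction and side of the threshold, 41 lost the call, 10 gained one and 17 changed sign. Pseudocounts of 0.1 and 5 and a filter of 5 TPM changed none. A left-out library was counted only in comparisons that include its group. The calls gained after CS1 and CS2 without shFTO replicate 3, named above, are therefore not in this tally. Under median-of-ratios scaling the sign turned for HSPH1 after CS1 (-0.0816), after CS2 (-0.0830) and between compounds (0.00136), for HSPA1A in CS1 minus hairpin (-0.0287) and for HSPE1 in CS2 minus hairpin (-0.0972). Under quantile normalization it turned for HSPH1 after CS1 (-0.0479), after CS2 (-0.0895) and between compounds (0.0416), for HSPD1 between compounds (-0.0785), for HSPA1A in CS1 minus hairpin (-0.0653), and in CS2 minus hairpin for HSPE1 (-0.0767) and HSP90AB1 (0.243, adjusted p = 0.00126). Leaving out single libraries gave -0.0374 to 0.00457 for DNAJB1 after CS1 (positive without CS1 replicate 3), -0.0281 to 0.159 for HSPA1A in CS1 minus hairpin and -0.0382 to 0.234 for HSPE1 in CS2 minus hairpin, both negative without shFTO replicate 1 or 2. The share of calls that were higher moved from 39.3% to 48.7% and 47.3% (CS1 against CS2), from 62.8% to 53.0% and 51.3% (CS1 minus hairpin) and from 62.7% to 51.2% and 51.2% (CS2 minus hairpin) under the 2 scalings. The cause of these changes was not tested. The planned sum of HSPA1A and HSPA1B was not run.

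After each gene's group mean was subtracted, same-numbered libraries correlated at -0.009 to 0.101 (CS1 and DMSO), 0.024 to 0.079 (CS2 and DMSO), 0.085 to 0.219 (CS1 and CS2) and 0.004 to 0.076 (shFTO and shNS). Libraries of different number correlated, in the same order, at -0.113 to 0.086, -0.124 to 0.062, -0.179 to 0.090 and -0.065 to 0.022. The numbers are not stated to mark a shared culture or day, so the main fit did not pair samples. Whether they mark a shared batch was not tested. With the replicate block 5 (CS1), 8 (CS2) and 8 (shFTO) members were called; HSPA1A with the hairpin (-0.20, adjusted p = 0.0594), DNAJB1 in CS1 minus hairpin (0.25, 0.0536) and HSPD1 in CS2 minus hairpin (0.22, 0.0517) lost the call. Most changes of 1.2-fold were missed in simulated data of this design with 200 changed genes. Far more genes were called in the real data, so that share does not carry over to them. In groups of 3 no outlier test was made, and in DMSO no member was singled out. TPM give no depth, so counting error is unknown.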
